A study of Mus musculus with 96 samples.

Results

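The 10 genes described here were chosen by name, with earlier results of these data known. They encode cytokine receptor chains and the proteins that carry their signal: Il6st, Il6ra, Il10ra, Il10rb, Il4ra, Il15ra, Il2rg, Jak1, Stat3 and Socs3. Each matched 1 of the 54532 gene models in the deposited tables, and all 10 had counts. They were measured by RNA sequencing in microglia, the resident macrophages of the brain, sorted from wild-type mice as CD11b-positive, Fcrls-positive and Ly6C-negative cells at 1000 cells per library. Old animals (20 to 22 months) gave 7 surgery and 8 control animals at 6 h, and 9 surgery and 8 control animals at 48 h. Young animals (3 to 5 months) gave 4 animals in each of the surgery and control arms at each time. Surgery was abdominal, and the labels do not say what was done to control animals. Hippocampus and hemisphere were taken from each of the 48 animals, which gives 96 libraries in 16 groups, and both libraries of an animal carry the same sort number.

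A cytokine receptor of this kind has no kinase of its own. When the ligand brings its chains together, the Janus kinases bound to them phosphorylate the receptor tails and then STAT proteins, which move to the nucleus and switch on genes. STAT3 is the main carrier for the interleukin-6 and interleukin-10 receptors, and SOCS3, made from one of its target genes, blocks the gp130 chain and so ends the signal. In microglia the interleukin-10 receptor is known for restraining inflammatory activation.

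The libraries held between 1874168 and 3778939 estimated counts (median 2703893). A set of 13 gene models with over 1% of the pooled counts each held 52.33% to 79.6% of each total and left 498339 to 1524471 counts for the other genes, so member genes rested on means of 6.35 (Il2rg) to 357.0 (Il10ra) counts per library. All 12 microglial markers were detected, with a summed level of 4150 to 11900 CPM per library (CPM is the count after scaling each library to 1000000). In 6 libraries, all at 6 h, low values did not run 1, 2, 3. These stepped libraries are young control hippocampus replicates 1 and 4, old surgery hippocampus replicates 5 and 6, old surgery hemisphere replicate 6 and old control hemisphere replicate 7. Sort numbers ran from 40 to 72 at 6 h and from 75 upwards at 48 h, so time and sort order cannot be told apart. Among young animals they ran from 41 to 54 at 6 h and from 75 to 90 at 48 h. The p-values measure the spread between animals. In the comparisons of hippocampus with hemisphere they rest on the spread left within animals.

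Levels of different genes were compared as CPM per kb of exon length, averaged over the 96 libraries. Il10ra, the ligand-binding chain of the interleukin-10 receptor, had the highest level of the 10 genes at 38.4 ± 12.02 CPM per kb (SD). Socs3, the feedback inhibitor, followed at 26.5 ± 12.5, and Il10rb, the second chain of the interleukin-10 receptor, at 11.8 ± 4.78. Il10ra stood above Socs3 in 86 of 96 libraries and Socs3 above Il10rb in 90 of 96, and both steps held for the means of all 16 groups.

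A middle tier lay closer together. Il4ra, the interleukin-4 and interleukin-13 receptor chain that signals through STAT6, averaged 8.38 ± 2.61 CPM per kb. Il6ra, which binds interleukin-6, averaged 6.89 ± 1.45, and the kinase gene Jak1 5.86 ± 1.85. Il6st, which encodes the shared signalling chain gp130, averaged 4.9 ± 2.11, and Stat3 3.57 ± 1.04. Neighbours in this tier did not separate cleanly: Il4ra was above Il6ra in 66 of 96 libraries, Jak1 above Il6st in 59, and Il6st above Stat3 in 70. Il6ra was above Jak1 in 78 of 96 libraries.

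Il15ra, which holds interleukin-15 at the cell surface, averaged 1.59 ± 0.852 CPM per kb, below Stat3 in 94 of 96 libraries. Il2rg, the common gamma chain, was lowest at 1.0 ± 0.684 CPM per kb, with a mean of 6.35 counts per library and 3 libraries at 0. It was under the count filter in the fits of a single region at 6 h, so 9 of the 10 genes were tested there. All 10 were tested at 48 h, between times and between regions.

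**Figure D1:**
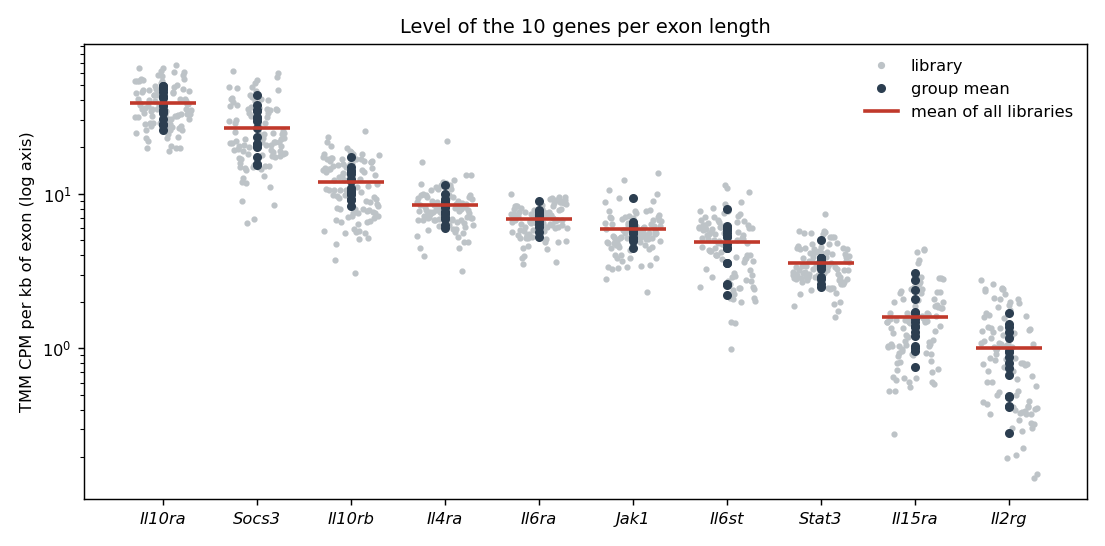
Level of each of the 10 genes in CPM per kb of exon length (log axis), with grey points for libraries, dark points for the 16 group means and a line at the mean of all libraries. The 3 Il2rg libraries at 0 cannot be drawn on a log axis. Il10ra and Socs3 lie above the other genes in every group, and Il15ra and Il2rg lie lowest.

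At 6 h the gp130 gene was lower and the interleukin-15 receptor gene higher in the hemisphere microglia of old surgery animals than in their controls. Il6st had a 2.18-fold lower level and Il15ra a 3.0-fold higher level in surgery than in control animals, and these were the genes called among the 9 tested. A gene is called where edgeR's quasi-likelihood test gave an adjusted p under 0.05 after Benjamini-Hochberg (BH) adjustment over all genes tested. Of all 12760 genes in this comparison 0.337% were called. At an unadjusted p under 0.05, 7 of the 9 passed, against 8.07% of all genes. The median log2 fold change was 0.46 over the 9 genes and −0.02 over all genes tested. That share and that median are description, since the genes were chosen with earlier results of these data known. In a bulk library, fewer cells of a type and less RNA per cell cannot be told apart.

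The promoter stretches of Il6st and Il15ra are shown because edgeR called these genes at 6 h, and that of Socs3, which was not called, because its window held a STAT motif. They are RefSeq sequences of build GRCm38.p6, written 5′ to 3′ on the gene's strand. Il6st lies at chr13:112464070-112510086 on the plus strand, and the stretch chr13:112463820-112464065 covers bases 250 to 5 before its start. Il15ra lies at chr2:11705290-11734317 on the plus strand, and the stretch chr2:11705043-11705288 covers the same distance before the start of one of its RefSeq windows. Socs3 lies at chr11:117966079-117970047 on the minus strand, and the stretch chr11:117969457-117969616 covers bases 250 to 91 before its RefSeq start, which is inside the annotated gene. Capitals mark the GC box (GGGCGG, or CCGCCC on the other strand), the CCAAT box and, in Socs3 alone of the promoters shown, the STAT core TTCNNNGAA. The Il15ra stretch holds none of them, and its GC box lies past the start.
Il6st promoter: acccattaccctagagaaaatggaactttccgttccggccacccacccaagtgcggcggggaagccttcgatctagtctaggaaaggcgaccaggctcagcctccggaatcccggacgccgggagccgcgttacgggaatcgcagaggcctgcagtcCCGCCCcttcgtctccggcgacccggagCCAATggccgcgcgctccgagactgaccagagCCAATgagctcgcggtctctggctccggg
Il15ra promoter: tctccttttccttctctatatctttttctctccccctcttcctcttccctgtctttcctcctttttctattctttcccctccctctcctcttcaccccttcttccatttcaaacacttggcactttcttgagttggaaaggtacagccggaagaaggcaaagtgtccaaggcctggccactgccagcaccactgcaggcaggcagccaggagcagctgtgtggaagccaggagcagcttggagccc
Socs3 promoter: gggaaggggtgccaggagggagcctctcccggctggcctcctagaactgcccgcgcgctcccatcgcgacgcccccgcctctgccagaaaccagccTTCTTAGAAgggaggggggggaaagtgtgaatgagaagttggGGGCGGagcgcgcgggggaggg

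RefSeq windows of 300 bases (250 before the start and 50 after it) matched 8 of the 10 genes, all but Il10ra and Il10rb, with 9 windows in all. The motifs were searched on both strands in 32851 windows of all genes. The Socs3 window held the STAT core TTCNNNGAA, which 8.3% of all windows hold, and no other member window did. The GC box GGGCGG was found in the windows of Il6st, Il4ra, Il15ra, Jak1, Stat3 and Socs3, and in 35.7% of all windows. The CCAAT box was found in those of Il6st, Jak1 and Stat3, and in 37.4% of all windows. The STAT core with 4 spacer bases (6.95% of all windows), the glucocorticoid response element (0.475%), the interferon element of a GAAA pair 2 bases apart (3.44%) and TATAAA (13.6%) had no match in the 9 windows.

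Il6st in old hemisphere at 6 h had a lowest, median and highest level of 10.96, 28.5 and 32.1 CPM in the 7 surgery libraries, against 32.1, 52.2 and 65.2 CPM in the 8 control libraries. All surgery libraries but 1 lay below every control, and the groups met at their edges. The means were 24.4 ± 7.95 CPM after surgery and 52.4 ± 10.97 CPM in controls (SD), resting on means of 64.9 and 137.0 counts per library. The log2 fold change was −1.12 ± 0.23 (SE; edgeR, BH 0.0244). The call was lost when surgery replicate 3 or 5 or control replicate 5 or 8 was left out, with BH values between 0.052 and 0.0668 in edgeR and log2 fold changes of −1.2 to −0.99 over all omissions. Among old animals within the sort numbers of the young ones (3 surgery and 3 control), the log2 fold change was −0.96 with BH 0.661.

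The same gene showed lower mean levels after surgery in the other 6 h groups, none of them called by edgeR. In old hippocampus the surgery libraries had 16.1, 26.6 and 43.5 CPM (lowest, median, highest), against 44.3, 52.7 and 89.99 CPM in controls. No surgery library reached a control there. The log2 fold change was −1.03 ± 0.21 with BH 0.0573 in edgeR, and the gene passed when control replicate 7 or surgery replicate 7 was left out (BH 0.0472 and 0.0259 in edgeR). Without the stepped libraries it was −0.95 with BH 0.173.

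In young hemisphere Il6st had 30.3, 66.8, 33.3 and 27.6 CPM after surgery, against 98.4, 57.3, 60 and 56.3 CPM in controls. Young surgery replicate 2 lay among the controls and the other 3 below them (log2 fold change −0.79 ± 0.31, edgeR BH 1.0). In young hippocampus the values were 40.6, 23.6, 26.8 and 22.4 CPM after surgery, against 39.8, 73.9, 42.1 and 42.4 CPM in controls. Surgery replicate 1 overlapped the lowest control (log2 fold change −0.79 ± 0.29, edgeR BH 0.511). That lowest control, replicate 1, and control replicate 4 are stepped libraries.

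Il15ra in old hemisphere at 6 h had 9.11, 12.02 and 18.5 CPM (lowest, median, highest) in surgery libraries, against 2.77, 3.82 and 10.1 CPM in control libraries. Control replicate 8, at 10.1 CPM, was the one control that reached the surgery range, and the next control was at 4.57 CPM. The means were 13.5 ± 3.47 CPM after surgery and 4.51 ± 2.33 CPM in controls (SD), a log2 fold change of 1.59 ± 0.25 (edgeR, BH 0.00143). Few reads stand behind it, with 21 to 52 counts per surgery library and 7 to 20 per control library. No omission of a single library ended the call. Among old animals within the young sort numbers the log2 fold change was 1.79 with BH 0.142 in edgeR.

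The higher Il15ra values were seen in the other 6 h groups too, without a call by edgeR. Young hippocampus had 12.7, 8.13, 12.5 and 8.88 CPM after surgery, against 3.12, 2.7, 5.03 and 2.64 CPM in controls, with no overlap (log2 fold change 1.64 ± 0.40, edgeR BH 0.214). Control replicates 1 and 4 there are stepped libraries, and the controls held 6 to 17 counts of the gene per library. Young hemisphere had 12.6, 10.4, 6.2 and 8.03 CPM after surgery, against 4.6, 4.7, 4.08 and 3.71 CPM in controls, again with no overlap (1.11 ± 0.35, edgeR BH 0.632). In old hippocampus the groups overlapped, with 6.99, 10.8 and 19.4 CPM (lowest, median, highest) after surgery, against 2.86, 5.48 and 10.4 CPM in controls (log2 fold change 0.99 ± 0.28, edgeR BH 0.23).

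**Figure D2:**
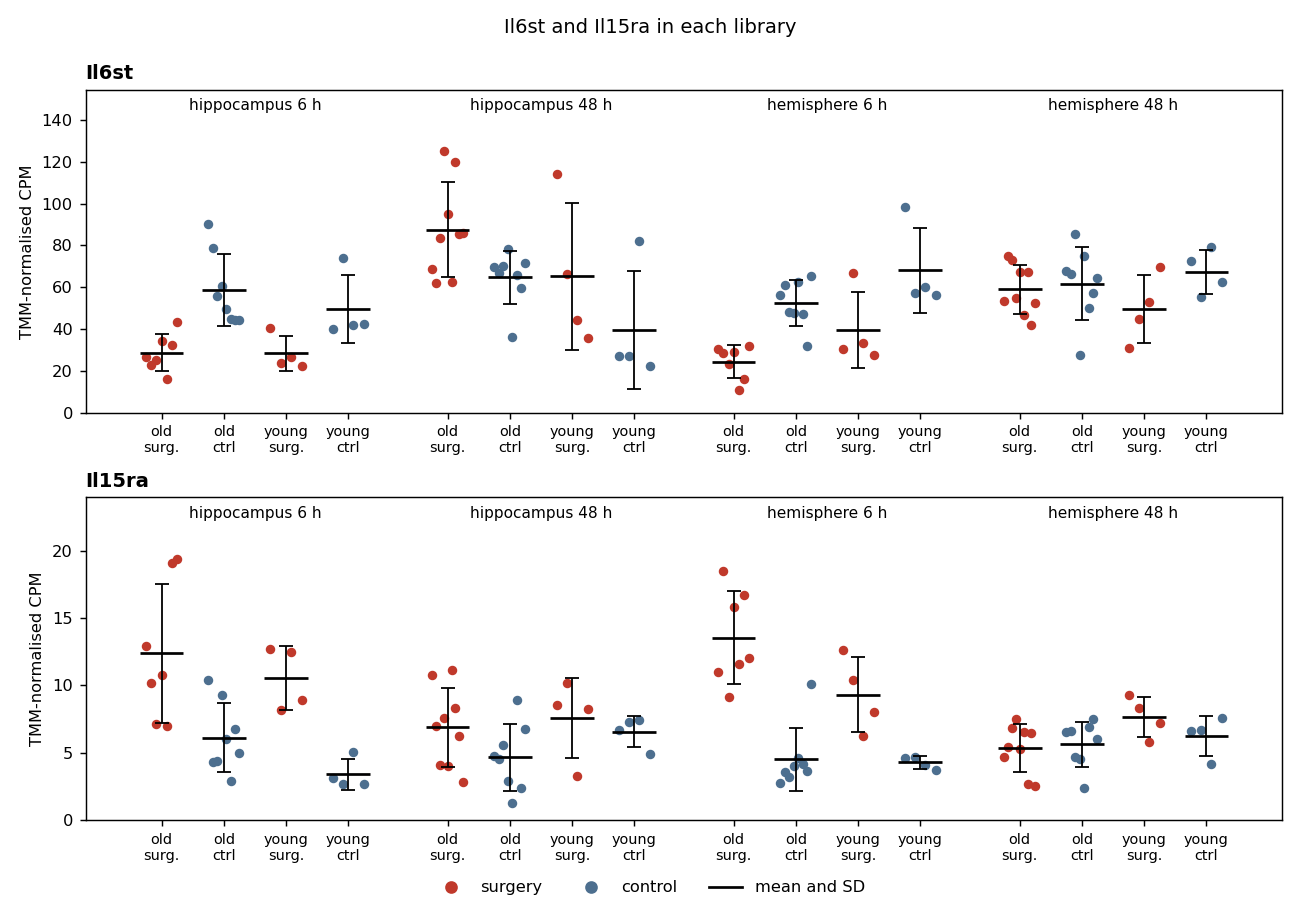
Level of Il6st and Il15ra in CPM in every library at 6 h and 48 h, for surgery and control animals of both ages and both regions, with 1 point per library and the group mean ± SD. At 6 h the Il6st means lie between 24.4 and 39.5 CPM in the surgery groups and between 49.6 and 68.0 CPM in the control groups, while Il15ra means lie between 9.31 and 13.5 CPM after surgery and between 3.37 and 6.13 CPM in controls.

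Among markers of other cell types, those of B cells, border-associated macrophages, astrocytes and oligodendrocytes moved with the 6 h comparison in old hemisphere. All 8 B-cell markers were detected in each arm, with summed levels of 48.5 to 87.8 CPM in surgery libraries and 95.3 to 406.0 CPM in control libraries. The immunoglobulin gene Ighm, at a mean of 83.3 CPM, held most of that sum and was lower after surgery (log2 fold change −1.35 ± 0.29, edgeR BH 0.0334). Cd79a, a defining marker, was at 0 in 45 of 96 libraries. Markers of border-associated macrophages summed to 181.0 to 587.0 CPM in surgery libraries (8 of 8 detected) and 91.4 to 216.0 CPM in control libraries (7 of 8). Their median sum was 233.0 CPM after surgery and 155.0 CPM in controls. Stab1, with a mean of 189.0 CPM over all libraries, held nearly all of that sum, and Lyve1 and Pf4 were at 0 in 70 and 42 of 96 libraries. The microglial markers summed to 4460 to 7330 CPM after surgery and 4260 to 7710 CPM in controls. Astrocyte markers (8 of 8 detected in each arm) summed to 49.02 to 85.2 CPM after surgery and 31.6 to 71.6 CPM in old hemisphere controls. Slc1a3, at a mean of 39.2 CPM over all libraries, held most of that sum, and Gfap was at 0 in 54 of 96 libraries. Oligodendrocyte markers (7 of 8 detected in each arm) summed to 19.9 to 44.6 CPM after surgery (median 29.4) and 27.1 to 93.05 CPM in controls there (median 47.4). Mog was at 0 in 84 of 96 libraries. All 4 oligodendrocyte markers tested had negative log2 fold changes, with 2 at an unadjusted p under 0.05 and none called by edgeR.

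The astrocyte sum was also higher on average after surgery in the other 6 h groups, at 73.4 ± 20.4 CPM against 39.4 ± 6.37 CPM in controls in young hemisphere and at 81.9 ± 28.0 CPM against 55.6 ± 18.6 CPM in young hippocampus (SD, n = 4 each). In old hippocampus it was 76.4 to 156.0 CPM after surgery and 33.0 to 87.1 CPM in controls. Border-associated macrophage markers there summed to 228.0 to 418.0 CPM after surgery (7 of 8 detected) and 122.0 to 276.0 CPM in controls (8 of 8). In young animals at 6 h this sum, held nearly all by Stab1, did not overlap between the arms in either region. Single genes did not overlap in 3.03% of all cases in young hemisphere and 3.89% in young hippocampus. The sum was 220.1 to 359.2 CPM after surgery and 150.5 to 211.4 CPM in controls in young hemisphere. In young hippocampus it was 328.0 to 370.1 CPM after surgery and 203.1 to 266.4 CPM in controls. Neutrophil markers (7 of 8 detected in each arm) summed to 53.9 to 128.0 CPM after surgery and 121.0 to 191.0 CPM in old hippocampus controls. Csf3r, at a mean of 135.0 CPM over all libraries, held most of that sum, and S100a8 and Ly6g were at 0 in 76 and 83 of 96 libraries. B-cell markers (8 of 8 in each arm) summed to 40.8 to 108.9 CPM after surgery and 97.3 to 129.0 CPM in old hippocampus controls. In young hemisphere at 6 h the B-cell sum averaged 81.8 ± 13.6 CPM after surgery and 124.0 ± 21.5 CPM in controls (SD). In young hippocampus it averaged 78.4 ± 8.82 CPM after surgery and 108.0 ± 31.8 CPM in controls. The arms overlapped in both young regions. The microglial markers summed to 4160 to 7850 CPM after surgery and 5630 to 9440 CPM in controls in old hippocampus, where all 12 had negative log2 fold changes (median −0.23), with 4 at an unadjusted p under 0.05 and none called by edgeR. The part of these cell types in the Il6st and Il15ra results was not tested.

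Of the kinase and signal carriers, edgeR called none at 6 h, while DESeq2 called Jak1 in young hemisphere and Socs3 in old hemisphere. Jak1 in old hemisphere had 37.7, 40.4 and 56.1 CPM (lowest, median, highest) in surgery libraries, against 23.9, 33.8 and 36.9 CPM in controls. Each of the 7 surgery libraries lay above all 8 controls, which made Jak1 the 1 gene of 9 whose groups did not overlap, against 0.251% of all genes (log2 fold change 0.46 ± 0.16, edgeR BH 0.313). The Jak1 model overlaps Raver2 on the opposite strand, and over all libraries Jak1 had 10969 counts and Raver2 249.

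In young hemisphere Jak1 had 72.3, 51.2, 98.03 and 48.8 CPM after surgery, against 39.1, 36.6, 31.7 and 40.2 CPM in controls (log2 fold change 0.87 ± 0.21, edgeR BH 0.3). The groups did not overlap for Jak1, Il15ra and Il6ra there, which is 3 of 9 genes, against 3.03% of all genes. Il6ra had 77.7, 75.8, 75.2 and 82.6 CPM after surgery, against 59.8, 75.1, 51.8 and 57.6 CPM in young hemisphere controls, a gap of less than the spread within either group. None of the 9 genes was called by edgeR in young hemisphere, where 0.0627% of all genes were, and 3 of 9 passed an unadjusted p under 0.05, against 4.42% of all genes. DESeq2 called 1 of the 9, Jak1, with BH 0.022.

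Stat3 in old hemisphere at 6 h had 29.1, 52.3 and 70.4 CPM (lowest, median, highest) after surgery, against 25.6, 30.9 and 53.3 CPM in controls. The groups overlapped widely (log2 fold change 0.46 ± 0.20, edgeR BH 0.528), and the direction turned to −0.04 among old animals within the young sort numbers. The Stat3 model overlaps Stat5a on the opposite strand, and over all libraries Stat3 had 8975 counts and Stat5a 1633. In young hippocampus Stat3 had 41.8, 30.6, 37.8 and 34.5 CPM after surgery, against 28.8, 16.7, 26.4 and 27.4 CPM in controls, with no overlap (log2 fold change 0.55, edgeR BH 0.638). Of those controls, replicates 1 and 4 are stepped libraries.

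Socs3 was not called in any surgery comparison by edgeR. In old hemisphere at 6 h it had 42.03, 72.4 and 118.0 CPM (lowest, median, highest) after surgery, against 25.8, 47.2 and 58.96 CPM in controls. The upper surgery libraries stood clear of the controls and the lower ones did not (means 76.3 ± 27.1 CPM and 45.1 ± 10.9 CPM, log2 fold change 0.74 ± 0.19, edgeR BH 0.116). Without surgery replicate 6, a stepped library, it passed with a log2 fold change of 0.84 and BH 0.037 in edgeR, and DESeq2 gave BH 0.0344 with all libraries.

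In young hemisphere Socs3 had 64.7, 58.8, 70.5 and 73.6 CPM after surgery, against 59.8, 50.7, 53.7 and 70.9 CPM in controls, which overlap. Old hippocampus had 37.6, 62.3 and 82.2 CPM (lowest, median, highest) after surgery, against 18.6, 41.99 and 65.5 CPM in controls. Young hippocampus had 52.05, 65.8, 71.5 and 52.6 CPM after surgery, against 24.4, 62.2, 62.5 and 49.5 CPM in controls. Surgery and control libraries overlapped in all of these groups.

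**Figure D3:**
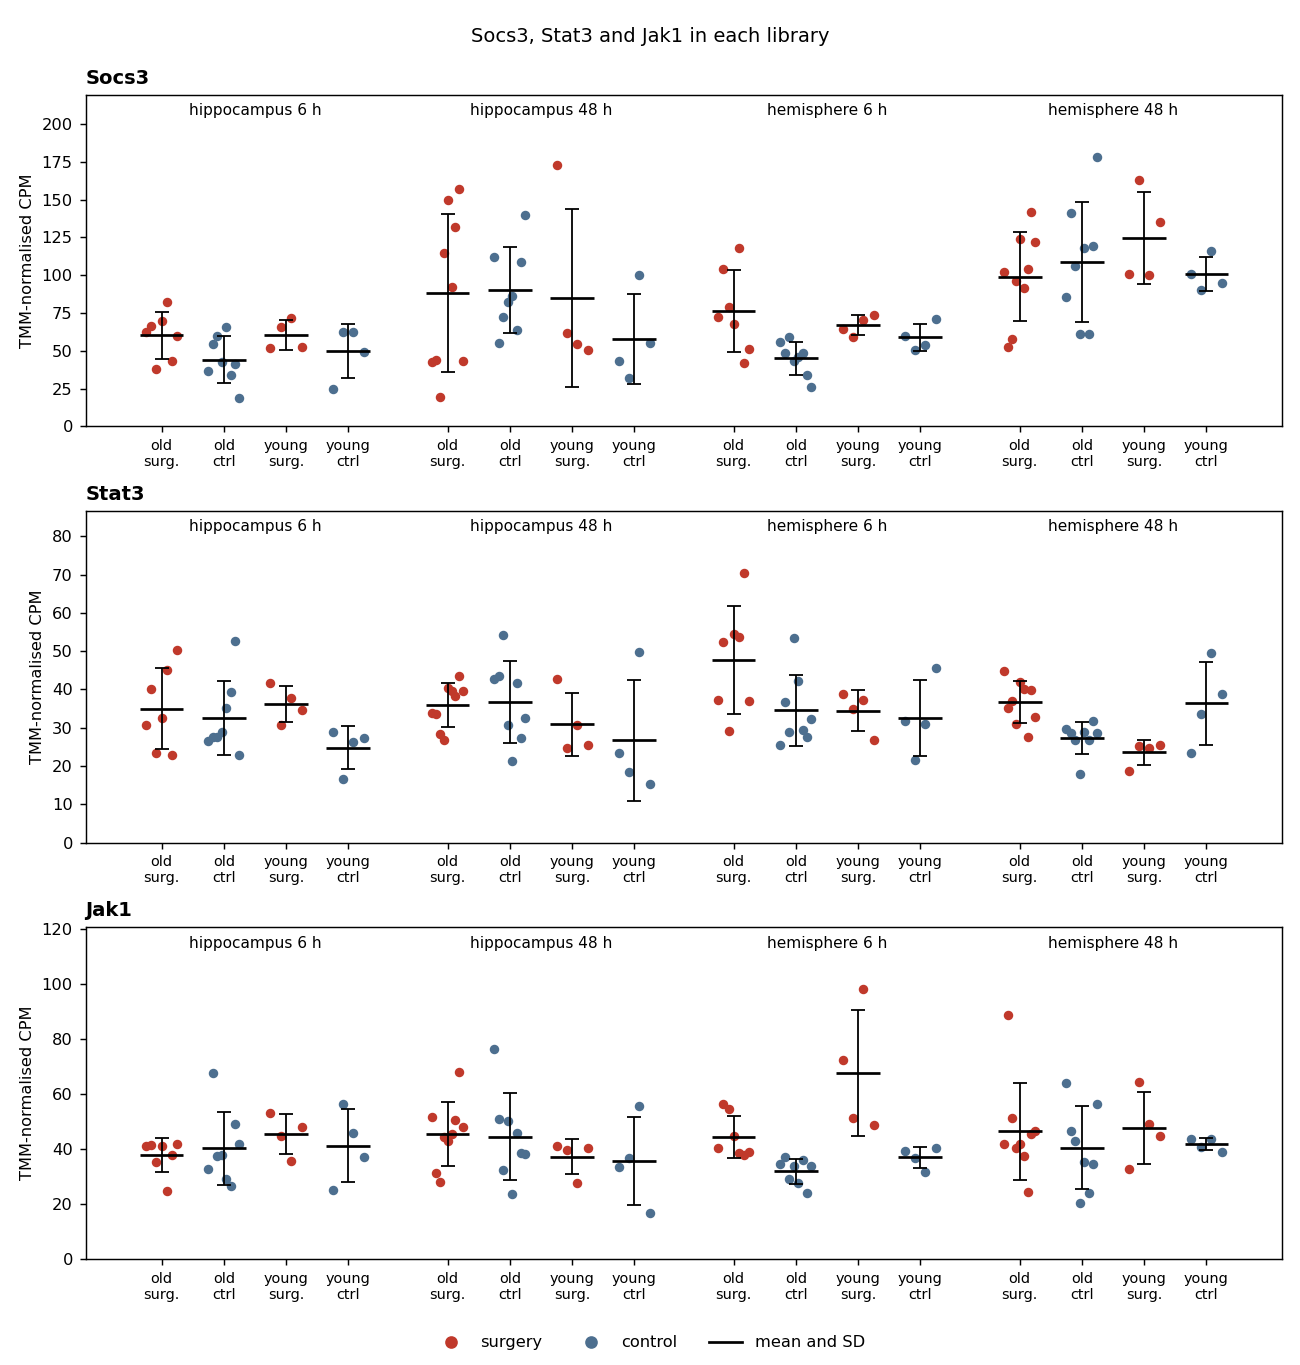
Level of Socs3, Stat3 and Jak1 in CPM in every library at 6 h and 48 h, for surgery and control animals of both ages and both regions, with 1 point per library and the group mean ± SD. Jak1 surgery libraries lie above all controls in the hemisphere at 6 h at both ages, and Socs3 group means at 48 h lie between 57.7 and 125.0 CPM.

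The remaining receptor chains showed smaller differences at 6 h, none called by edgeR. In old hemisphere Il6ra had 49.8, 67.5 and 72.9 CPM (lowest, median, highest) after surgery, against 30.4, 44.1 and 69.9 CPM in controls (log2 fold change 0.45 ± 0.16, edgeR BH 0.345). Most surgery libraries lay high in the control range. Il4ra had 37.7, 58.9 and 132.0 CPM after surgery, against 34.7, 44.1 and 56.7 CPM in old hemisphere controls (log2 fold change 0.60 ± 0.18, edgeR BH 0.228). Surgery replicate 2, at 132.0 CPM, stood apart, and without it the log2 fold change was 0.37.

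In young hippocampus Il4ra averaged 53.3 ± 18.4 CPM after surgery and 35.9 ± 13.8 CPM in controls (SD, log2 fold change 0.59 ± 0.28, edgeR BH 0.623). Without the stepped libraries, which are 2 of the 4 controls, it was 0.31. Il10ra in old hippocampus had 65.6, 93.7 and 105.6 CPM (lowest, median, highest) after surgery, against 95.9, 115.0 and 164.0 CPM in controls. The ranges overlapped, with a log2 fold change of −0.41 ± 0.16 (edgeR BH 0.487). Il10rb group means at 6 h were 34.6 to 39.8 CPM in surgery groups and 31.5 to 46.3 CPM in control groups, and its libraries overlapped in each comparison. Il2rg group means were 0.677 to 2.28 CPM in surgery groups and 1.179 to 3.29 CPM in control groups.

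In both hippocampal comparisons at 6 h edgeR called 0 of the 9 genes, against 0.0876% of all genes in old and 0.0365% in young animals. At an unadjusted p under 0.05, 3 of 9 passed at each age, against 8.3% of all genes in old and 7.84% in young hippocampus. DESeq2 called 1 of the 9 at each age, Il6st in old and Il15ra in young animals. Groups did not overlap for Il6st in old hippocampus (1 of 9 genes, against 0.182% of all genes) and for Il15ra and Stat3 in young hippocampus (2 of 9, against 3.89%). The median log2 fold change of the 9 genes was 0.10 in old and 0.31 in young hippocampus, against 0.02 and −0.02 over all genes.

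At 48 h edgeR called none of the 10 genes, and 0.0% of all genes, in each of the 4 surgery comparisons. DESeq2 called none of the 10 either. No member had groups that did not overlap, against 0.0327% of all genes in old hemisphere, 2.11% in young hemisphere, 0.0% in old hippocampus and 1.88% in young hippocampus. At an unadjusted p under 0.05, 1 of 10 passed in old hemisphere, 1 in young hemisphere, 0 in old hippocampus and 1 in young hippocampus, against 5.84%, 3.59%, 3.6% and 6.12% of all genes. The Il15ra group means were 5.32 to 7.63 CPM in surgery groups and 4.64 to 6.56 CPM in control groups at that time, and Il6st means were 49.6 to 87.7 CPM and 39.5 to 67.3 CPM. The Il6st mean of the young hippocampus was 65.2 CPM after surgery and 39.5 CPM in controls, with 114.0, 66.4, 44.4 and 35.7 CPM after surgery, against 27.0, 27.1, 81.9 and 22.2 CPM in controls. The groups overlapped (log2 fold change 0.73 ± 0.33, edgeR BH 0.768). Single libraries moved that value: the log2 fold change was 1.33 without control replicate 3 (edgeR BH 0.189) and 0.35 without surgery replicate 1 (BH 0.842).

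Stat3 in the hemisphere at 48 h had opposite fold changes at the 2 ages. Old animals had 27.7, 37.0 and 44.7 CPM (lowest, median, highest) after surgery, against 17.9, 28.5 and 31.8 CPM in controls (log2 fold change 0.41 ± 0.14, edgeR BH 0.772). Young animals had 18.8, 25.3, 24.7 and 25.5 CPM after surgery, against 23.4, 33.7, 49.6 and 38.7 CPM in controls (log2 fold change −0.62 ± 0.21, edgeR BH 1.0). Most old surgery libraries lay above the control median and all 4 young surgery libraries below theirs. The difference of the surgery effects, old minus young, was 1.04 ± 0.25 with BH 0.574 in edgeR, so it was not called, and it ran from 0.863 to 1.19 when single libraries were left out.

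**Figure D4:**
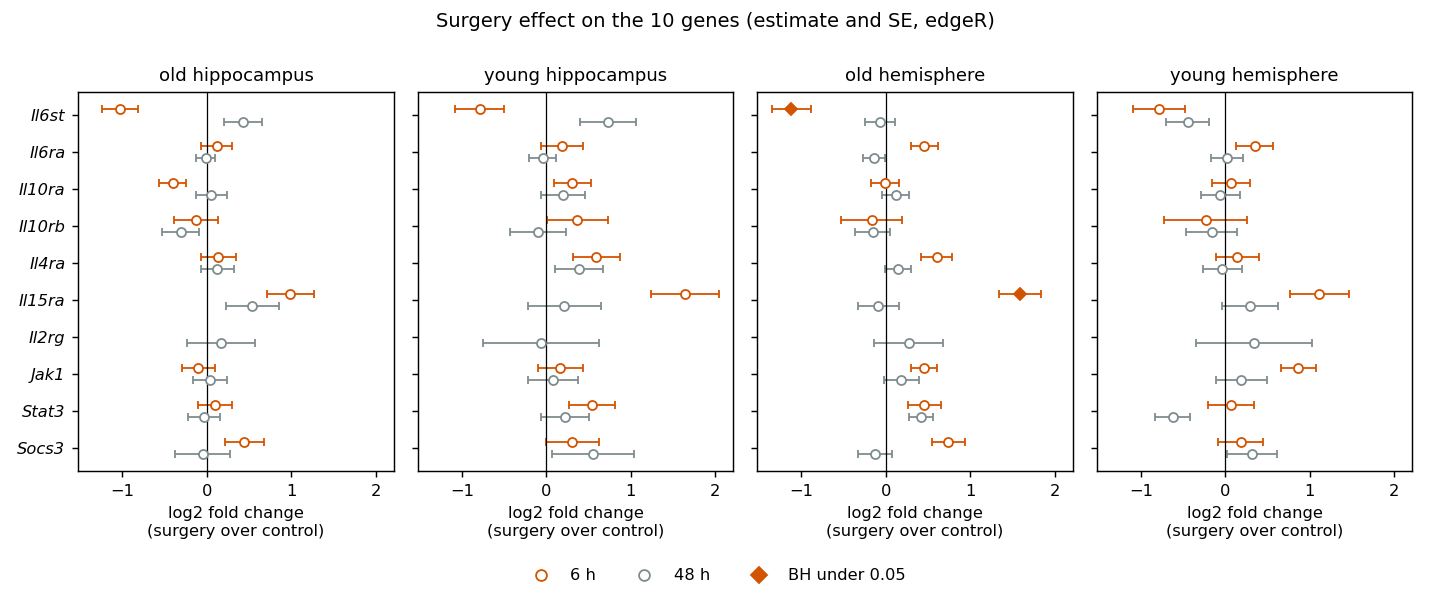
Log2 fold change, surgery over control, of each gene in the 8 surgery comparisons, with bars of 1 SE and filled diamonds for called genes. Il6st lies below 0 and Il15ra above 0 in all 4 comparisons at 6 h, and the values at 48 h lie closer to 0 for Il15ra.

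The surgery effect was compared between times within each age and region, 48 h minus 6 h. In old hemisphere the Il15ra effect was lower at 48 h by a log2 difference of −1.68 ± 0.34 (edgeR, BH 0.0259), and Il15ra was the gene called of the 10, against 0.17% of all genes. Il15ra averaged 5.32 ± 1.77 CPM after surgery and 5.63 ± 1.68 CPM in controls at 48 h there (SD, n = 9 and 8). Il6st differed by 1.05 ± 0.29 (edgeR BH 0.151), Socs3 by −0.87 ± 0.29 (BH 0.343) and Il6ra by −0.59 ± 0.20 (BH 0.355), none of them called. With Il15ra these make 4 of 10 at an unadjusted p under 0.05, against 7.38% of all genes. The Il15ra call was lost without the count filter and within the young sort numbers. Ighm, the B-cell gene, also differed between times in old hemisphere (log2 difference 1.55, edgeR BH 0.0385), and its part was not tested.

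In old hippocampus the Il6st surgery effect differed between times by 1.47 ± 0.33 (edgeR BH 0.104), and in young hippocampus by 1.49 ± 0.46 (BH 0.41). Il15ra differed by −1.46 ± 0.60 in young hippocampus (edgeR BH 0.554), and Stat3 by −0.69 ± 0.34 in young hemisphere (BH 1.0). Of the 10 genes edgeR called 0 in these 3 comparisons, against 0.0% of all genes in both hippocampal ones and 0.00707% in young hemisphere. At an unadjusted p under 0.05 it passed 1 in old hippocampus, 2 in young hippocampus and 1 in young hemisphere, against 7.0%, 8.23% and 4.32% of all genes, and DESeq2 called 1 in old hippocampus.

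Levels at the 2 times are given without a test, since their sort numbers do not overlap. Socs3 group means ran from 60.2 to 76.3 CPM in surgery and 44.1 to 58.8 CPM in control groups at 6 h, and from 84.8 to 125.0 CPM in surgery and 57.7 to 108.6 CPM in control groups at 48 h. Il10ra group means ran from 90.02 to 129.0 CPM in surgery and 97.7 to 119.0 CPM in control groups at 6 h, and from 149.0 to 172.0 CPM in surgery and 132.0 to 174.0 CPM in control groups at 48 h. Il10ra was the one member whose group means did not overlap between the times. The Socs3 means overlapped through the young control hippocampus at 48 h, at 57.7 CPM.

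The ages were compared in their surgery effects, old minus young, and none of the genes was called in the 4 such comparisons by edgeR, nor was any gene of all tested (0.0%). At 6 h the log2 difference in hemisphere was −0.33 for Il6st, with an approximate 95% interval from −1.08 to 0.409, and 0.47 for Il15ra, from −0.368 to 1.31. In hippocampus it was −0.24 for Il6st, from −0.944 to 0.46, and −0.65 for Il15ra, from −1.61 to 0.299. These intervals leave room for differences of up to 1 log2 unit or more, so the ages were not shown to respond alike or differently. Apart from Stat3 in hemisphere at 48 h, the member that passed an unadjusted p under 0.05 was Il10ra in hippocampus at 6 h (−0.72 ± 0.27, edgeR BH 0.511). That is 0 and 1 of 9 genes in hemisphere and hippocampus at 6 h, against 3.98% and 9.28% of all genes, and 1 and 0 of 10 at 48 h, against 4.81% and 5.29%. DESeq2 called 0 of the genes in these comparisons.

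Between control animals, old over young, edgeR called none of the 9 genes tested at 6 h and none of the 10 at 48 h. The share called of all genes was 0.0784% in hemisphere and 0.0584% in hippocampus at 6 h, and 0.0898% and 0.0834% at 48 h. The members with an unadjusted p under 0.05 were Il6ra in hemisphere at 6 h, Il15ra in hippocampus at 6 h, Stat3 in hemisphere at 48 h, and Il6st, Il10rb and Il2rg in hippocampus at 48 h. Of all genes 6.79% in hemisphere and 8.36% in hippocampus passed that limit at 6 h, and 6.6% and 7.91% at 48 h. DESeq2 called none of the members. In hippocampus at 6 h Il15ra averaged 6.13 ± 2.6 CPM in old and 3.37 ± 1.13 CPM in young controls (SD, log2 fold change 0.87 ± 0.36, edgeR BH 0.523). Both stepped control libraries of the young hippocampus enter that value. In hippocampus at 48 h Il6st averaged 64.7 ± 12.6 CPM in old and 39.5 ± 28.3 CPM in young controls (log2 fold change 0.71 ± 0.30, edgeR BH 0.546). Young control replicate 3, at 81.9 CPM, decided that value: without it the log2 fold change was 1.31 and BH 0.0443 in edgeR.

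Il10rb averaged 65.6 ± 16.2 CPM in old and 41.2 ± 18.7 CPM in young hippocampal controls at 48 h (log2 fold change 0.65 ± 0.29, edgeR BH 0.562), and Il2rg 2.78 ± 1.76 and 1.02 ± 0.614 CPM (1.29 ± 0.58, BH 0.58), on a mean of 6.38 and 2.75 counts per library. Stat3 in hemisphere at 48 h averaged 27.4 ± 4.14 CPM in old and 36.4 ± 10.9 CPM in young controls (−0.40 ± 0.18, edgeR BH 0.681). Il6ra in hemisphere at 6 h averaged 45.1 ± 13.5 CPM in old and 61.1 ± 9.96 CPM in young controls (−0.43 ± 0.19, edgeR BH 0.668). The Il2rg level was low in every one of the 16 groups, with means between 0.677 and 4.07 CPM.

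Hippocampus and hemisphere of the same control animals were compared with the animal as a block, and edgeR called none of the 10 genes in the 4 comparisons. Of all genes 0.0297% were called in old controls at 48 h and 0.0% in the other 3. At an unadjusted p under 0.05 edgeR passed Stat3 in old controls at 48 h (36.8 ± 10.6 CPM in hippocampus and 27.4 ± 4.14 CPM in hemisphere, log2 fold change 0.39 ± 0.17, BH 0.78) and Il4ra in young controls at 6 h (35.9 ± 13.8 and 45.7 ± 3.83 CPM, −0.46 ± 0.20, BH 0.753). In young controls at 48 h it passed Il6st (39.5 ± 28.3 CPM in hippocampus and 67.3 ± 10.5 CPM in hemisphere, −0.96 ± 0.34), Socs3 (57.7 ± 29.98 and 101.0 ± 11.1 CPM, −0.92 ± 0.34) and Stat3 (26.8 ± 15.8 and 36.4 ± 10.9 CPM, −0.53 ± 0.24), each with BH 1.0. The hippocampal libraries of those young controls were the more scattered for all 3 genes. Members past that limit were 0 and 1 of 10 in old and young controls at 6 h, against 5.58% and 6.53% of all genes, and 1 and 3 at 48 h, against 6.22% and 4.52%. DESeq2 called none of the 10 in these comparisons.

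The genes whose log level followed a member most closely over the 96 libraries were looked up among 8552 genes, as a description. The libraries share animals in pairs, sort order, depth and group differences, so no test was made. Il6st lay closest to Cyb561a3 (Pearson r 0.792), Nrp1, a neuropilin co-receptor (0.784), and Cx3cr1, the fractalkine receptor of microglia (0.78). Socs3 lay closest to Dusp1 (0.835), Btg2 (0.772) and Fos (0.766), which are early-response genes. Il15ra lay closest to Ddit4 (0.617), Rbm26 (0.606) and Ccnd3, a cyclin gene (0.605).

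Among the members themselves Il6st followed Il10ra (r 0.641) more than its own partners Il6ra (0.219), Jak1 (0.22) or Stat3 (0.00351). Socs3 also lay nearest to Il10ra (0.604), with Il10rb at 0.488 and Stat3 at 0.158. Il6st and Il15ra ran against each other at r −0.348.

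Other genes of the pathway were taken from 8 lists of ligands, receptor chains, kinases and STATs, inhibitors and targets. In the 8 surgery comparisons edgeR called 1 gene of these lists, Ptpn1, which encodes a phosphatase that acts on Janus kinases. In old hemisphere at 6 h Ptpn1 was higher, at 80.1 ± 27.7 CPM after surgery and 43.1 ± 6.56 CPM in controls (SD, log2 fold change 0.87 ± 0.17, edgeR BH 0.0145), with no overlap. Of all genes in that comparison 0.337% were called and 0.251% had groups that did not overlap. Over the 8 surgery comparisons the share called of all genes ran from 0.0% to 0.337%. Ptpn1 was 1 of 15 tested inhibitors and phosphatases of 17 listed, whose median log2 fold change was −0.01. Ptpn6, the most abundant of that list at 31.1 CPM per kb, had log2 fold changes of −0.54 in old (edgeR BH 0.246) and −0.82 in young hemisphere (BH 0.491).

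Of the ligands, 2 of 8 in the interleukin-6 family (Clcf1 at 3.99 and Osm at 3.82 CPM per kb) and 1 of 9 for the other receptors (Il15 at 2.75 CPM per kb) passed the filter in old hemisphere at 6 h, and none was called. Il7 averaged 0.155 CPM per kb. Il15, the ligand that Il15ra presents, averaged 4.5 ± 0.914 CPM after surgery and 9.94 ± 2.24 CPM in controls in young hippocampus at 6 h, with no overlap, as for 3.89% of all genes there (log2 fold change −1.12, edgeR BH 0.6). Both stepped libraries of those 4 controls enter that value. In the other 6 h comparisons its groups overlapped, with log2 fold changes of 0.04 in old hemisphere, −0.35 in young hemisphere and −0.38 in old hippocampus (edgeR BH 0.993, 1.0 and 0.794). In young hippocampus at 48 h the log2 fold change was 0.82 (edgeR BH 0.835).

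Lifr, the leukaemia inhibitory factor receptor chain that pairs with gp130, was the most abundant of 6 other interleukin-6 family chains, at 3.2 CPM per kb, ahead of Il11ra1 at 2.3. It had higher means after surgery in all 4 comparisons at 6 h without a call. In old hemisphere it averaged 52.9 ± 12.6 CPM after surgery and 26.0 ± 12.6 CPM in controls (log2 fold change 1.01 ± 0.28, edgeR BH 0.149). The log2 fold change was 1.08 in young hemisphere (edgeR BH 0.889), 0.78 in old hippocampus (BH 0.323) and 1.00 in young hippocampus (BH 0.455).

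The other lists held no called gene in a surgery comparison. Of 25 other receptor chains 15 were tested in old hemisphere at 6 h, with a median log2 fold change of −0.18, led in level by Ifngr1 (55.8 CPM per kb) and Csf3r (37.4). Csf3r, the granulocyte colony-stimulating factor receptor, had a log2 fold change of −0.78 in old hippocampus at 6 h (edgeR BH 0.279). Of 9 other kinases and STATs 8 were tested, with a median of 0.08, led by Stat6 (8.59 CPM per kb) and Jak3 (4.02). Jak3, which binds the common gamma chain, had a log2 fold change of 0.68 in old hemisphere (edgeR BH 0.243).

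Of 20 known STAT3 targets 9 were tested in old hemisphere at 6 h, of which 4 had positive and 5 negative log2 fold changes, with a median of −0.01. Junb (245.0 CPM per kb) and Mcl1 (11.8) had the highest levels among them. In old hippocampus Junb had a log2 fold change of −0.41 (edgeR BH 0.557). Of 10 STAT6 targets 1 was tested in old hemisphere, Egr2 (4.53 CPM per kb), with a log2 fold change of 1.32 (edgeR BH 0.552), and Ccl24 averaged 0.798 CPM per kb.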

How the data were processed

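Per the file headers, each deposited column holds one library's estimated counts by Ensembl gene model, in whole numbers. Build mm10, with R 4.2.1 and DESeq2 1.36.0, is named in the submitters' processing notes. Aligner, counter and annotation are not stated in the sources used here. Libraries were made by Smart-seq2, per the design text, whose original form does not mark strand, and use of strand in counting is likewise not given. The tests had been planned on raw counts and were applied to these estimated counts as deposited. Of 54532 identifiers 54495 matched the annotation of the same build used for names, positions and exon lengths, and 37 did not.

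Each region and time was fitted as 4 groups with edgeR 4.0.16 (R 4.3.3): TMM normalization, a minimum count of 10 in filterByExpr, and the quasi-likelihood F-test, with Benjamini-Hochberg (BH) adjustment over all genes tested and a threshold of 0.05. Surgery was compared with control, old with young controls, and the surgery effects between ages. The surgery effect at 48 h was set against that at 6 h in a fit of all 8 groups of a region, and regions were compared with the animal as a block, since sort numbers tie both libraries to one animal. Fold changes are log2 with SE, and intervals are approximate, from the SE. CPM values are TMM-normalized over all 96 libraries. The alternatives were DESeq2 size factors in edgeR, DESeq2 1.42.0, limma voom (limma 3.58.1), no count filter, the 13 largest gene models left out, the stepped libraries left out, a replicate block, sort-number limits, only the groups compared, and single libraries left out.

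The genes and the 8 pathway lists were chosen with earlier results of these data known. All 10 genes are given in every comparison where they were called or passed an unadjusted p under 0.05, pathway genes where called or among the 2 highest in level of a list, and for Il6st, Il15ra and Socs3 the 3 genes most alike. For pathway genes without a call, fold changes are given in only some of the comparisons tested. They do not show the range over all comparisons. Ighm and the marker sums are given because they moved with the comparison and were chosen after their values were seen. Promoter sequences are RefSeq's, build GRCm38.p6.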

Additional observations from a re-analysis of the deposited data

Results flagged for a closer look

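In 19 of the 160 sets of libraries (10 genes in 16 groups), 1 library stood apart from the rest of its group by Dixon's 95% criterion, which chance alone meets in about 1 in 20 groups. In 5 sets the gene was Il6st. Young surgery hemisphere replicate 2 at 6 h had 66.8 CPM (next 33.3), young control hemisphere replicate 1 at 6 h 98.4 CPM (next 60), and young control hippocampus replicate 2 at 6 h 73.9 CPM (next 42.4). Young control hippocampus replicate 3 at 48 h had 81.9 CPM (next 27.1), and old control hippocampus replicate 5 at 48 h was low at 36.3 CPM (next 59.6).

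Il10rb stood apart in 3 sets, at 96.5 CPM in young control hemisphere replicate 1 at 6 h (next 34.3), at 67.4 CPM in young surgery hippocampus replicate 4 at 6 h (next 32.8), and low at 25.1 CPM in young surgery hemisphere replicate 1 at 48 h (next 55.4). The young control hemisphere replicate 1 library at 6 h was thus high for both Il6st and Il10rb. Il10ra was at 162.0 CPM in young surgery hippocampus replicate 1 at 6 h (next 121.0). Il4ra was at 132.0 CPM in old surgery hemisphere replicate 2 at 6 h (next 70.3), and Il15ra at 10.1 CPM in old control hemisphere replicate 8 at 6 h (next 4.57). Il2rg was at 4.94 CPM in old surgery hippocampus replicate 6 at 6 h, a stepped library (next 2.08), and at 4.45 CPM in old control hippocampus replicate 6 at 6 h (next 2.57).

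Jak1 was at 88.5 CPM in old surgery hemisphere replicate 2 at 48 h (next 51.1), low at 24.8 CPM in old surgery hippocampus replicate 5 at 6 h, a stepped library (next 35.2), and low at 27.6 CPM in young surgery hippocampus replicate 3 at 48 h (next 39.4). Stat3 was low at 18.8 CPM in young surgery hemisphere replicate 1 at 48 h (next 24.7), the library in which Il10rb was also low. It was low at 17.9 CPM in old control hemisphere replicate 4 at 48 h (next 26.9). Socs3 was at 173.0 CPM in young surgery hippocampus replicate 1 at 48 h (next 62.0). The surgery effect on Il15ra in old hemisphere differed between 48 h and 6 h by −1.68 ± 0.34 on the log2 scale in edgeR's test of the difference.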

How the results depend on the processing

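The number of members called stayed as reported in 17 of the 24 comparisons under every alternative run. In old hemisphere at 6 h, 2 members were called, against 1 with the replicate block, 0 among animals within the young sort numbers, and 1 to 3 when single libraries were left out. With the replicate block Il6st had −1.1 (edgeR BH 0.0679) and Il15ra 1.83 (BH 0.000377). Correlations of same-numbered surgery and control libraries ran from −0.202 to 0.234. Hippocampus and hemisphere of one animal gave −0.12 to 0.184 at 6 h and −0.353 to 0.138 at 48 h. Pairs that share a sort number read as low, so this check cannot tell whether surgery and control numbers paired the animals. The block changed no other member count. Stat3 in old hemisphere at 6 h reversed to −0.0403 within the young sort numbers, where 3 animals per arm remained, and the cause was not tested.

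In old hippocampus at 6 h the count was 0, against 1 with DESeq2, limma voom, no count filter and only the groups compared, and 0 to 1 when single libraries were left out. DESeq2 also called 1 member in young hemisphere and 1 in young hippocampus at 6 h. Old over young controls in hippocampus at 48 h gave 0 to 1 over single omissions. For the surgery effect at 48 h minus 6 h, old hemisphere gave 1, against 2 with DESeq2, 0 without the filter (Il15ra BH 0.103 in edgeR) and 0 within the young sort numbers (BH 0.919), and old hippocampus 0, against 1 with DESeq2. Single libraries were not left out in the old comparisons between times. Of the fold changes of single genes under the alternatives, 756 kept direction and side of the threshold, 9 lost the call, 13 gained it and 1 reversed.

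Over all genes, calls at 6 h in old hemisphere were 43, against 113 with DESeq2, 27 with only the groups compared and 0 within the young sort numbers. In young hemisphere they were 8, against 26 with DESeq2, 5 with limma and 2 with the replicate block. In old hippocampus they were 12, against 64 with DESeq2, 34 without the filter, 22 with only the groups compared, 7 with the block and 0 within the young sort numbers. In young hippocampus they were 5, against 34 with DESeq2, 9 without the filter, and 0 without the stepped libraries, within the young sort numbers or with only the groups compared. For 48 h minus 6 h in old hemisphere they were 24, against 55 with DESeq2, 14 with limma, 5 without the filter, 5 with the block and 0 within the young sort numbers. Depth limits Il15ra and Il2rg most, at means of 19.4 and 6.35 counts per library.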
